A study of Mus musculus with 4 samples.

Results

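The 47 genes described here encode the contractile machinery of striated muscle, its calcium handling proteins, assembly factors and the fusion proteins of muscle precursors, and were read by gene symbol from tables of 55487 gene identifiers. They were measured in satellite cells, the stem cells of skeletal muscle, from 2 mice of the Tg:Pax7-nGFP genotype, in which nuclear green fluorescent protein marks cells that use the Pax7 promoter. Minced skeletal muscle of each mouse was exposed during its initial digestion to a vivo-morpholino, an antisense oligomer that enters cells without transfection. One group received a control morpholino and the other a morpholino that keeps exon 6 out of Numb, whose protein is an endocytic adaptor and inhibitor of Notch. With 1 library per mouse and morpholino, both groups held 2 libraries, and all 4 share the transgene, the digestion and exposure to a morpholino. The sources used here do not give the age or sex of the mice or the sorting gate.

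Muscle contracts when myosin thick filaments pull on actin thin filaments inside the sarcomere, a unit bounded by Z-discs and held in register by titin, nebulin and the M-band. Calcium released from the sarcoplasmic reticulum binds troponin C, which moves tropomyosin off the sites where myosin binds actin. Most of these proteins exist in fast, slow and embryonic or cardiac versions encoded by separate genes. Satellite cells lack sarcomeres while quiescent, and most of these genes are known to be switched on after they become myoblasts, differentiate under MyoD and MEF2 factors and fuse into fibres.

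Promoter sequence was available for 38 of the 47 genes (44 promoters, from RefSeq on GRCm38.p6), taken here as the 250 bases upstream of the transcription start. Some genes contributed more than 1 promoter, and some of those overlap. The 4 below are shown because they span the range of levels, from Des, among the most abundant transcripts of the cells, through Tnnt1 and Acta1, to Myh4, which was close to undetected. Capitals mark every match to CANNTG, the E-box read by MyoD and related factors. The Des window lies at chr1:75360042-75360291 (plus strand), the Tnnt1 window at chr7:4515976-4516225 (minus strand), the Acta1 window at chr8:123894776-123895025 (minus strand) and the Myh4 window at chr11:67237562-67237811 (plus strand). The Tnnt1 window lies inside the longer gene model of GENCODE vM21, which starts further upstream.
Des: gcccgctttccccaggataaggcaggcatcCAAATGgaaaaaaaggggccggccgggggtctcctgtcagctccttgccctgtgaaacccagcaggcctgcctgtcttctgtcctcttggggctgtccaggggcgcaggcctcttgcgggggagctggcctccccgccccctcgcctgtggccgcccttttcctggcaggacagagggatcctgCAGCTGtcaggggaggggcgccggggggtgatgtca
Tnnt1: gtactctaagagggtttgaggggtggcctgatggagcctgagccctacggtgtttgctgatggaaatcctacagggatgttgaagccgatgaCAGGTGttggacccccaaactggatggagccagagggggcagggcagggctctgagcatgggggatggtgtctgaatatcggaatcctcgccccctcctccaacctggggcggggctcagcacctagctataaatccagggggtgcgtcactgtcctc
Acta1: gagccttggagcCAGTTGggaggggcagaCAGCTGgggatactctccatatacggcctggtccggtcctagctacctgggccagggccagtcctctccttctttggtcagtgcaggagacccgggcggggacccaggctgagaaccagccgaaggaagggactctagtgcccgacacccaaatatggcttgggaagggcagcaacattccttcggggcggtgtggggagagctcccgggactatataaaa
Myh4: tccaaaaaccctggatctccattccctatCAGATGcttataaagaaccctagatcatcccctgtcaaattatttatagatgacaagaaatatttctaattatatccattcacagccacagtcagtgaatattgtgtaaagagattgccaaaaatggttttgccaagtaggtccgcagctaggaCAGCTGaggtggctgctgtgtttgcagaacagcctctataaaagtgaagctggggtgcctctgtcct

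The motif CANNTG, which reads the same on both strands, was present in 36 of the 44 promoters (81.8%), against 66.2% of 32851 mouse promoters of the same length. Its version CAGCTG, a subset of those matches, was present in 17 of the 44 (38.6%, against 13.0% of all). The sequence TATAAA was present in 9 (20.5%, against 12.4%), the MEF2 element in 6 (13.6%, against 2.92%) and the CArG box of serum response factor in 7 (15.9%, against 1.47%), each searched on both strands. In the printed windows Des, Acta1 and Myh4 hold 2 E-boxes each, 1 of them CAGCTG, and Tnnt1 holds 1. Myh4 also holds 3 matches to TATAAA, 1 MEF2 element and 1 CArG box, so the gene with the lowest level of the 4 has the most of these matches. A match is a description of the letters and not a measured binding site.

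Estimated counts summed to between 230431665 and 355411827 per library, but they were derived from coverage and are not numbers of fragments, so depth in fragments is unknown. The 47 genes together took 0.250% to 0.268% of the counts. Numb itself stood at 27.2 TPM (length-scaled transcript abundance) with the control and 39.7 TPM with the Numb exon 6 morpholino in mouse 1, and at 37.0 and 40.2 TPM in mouse 2; values per gene do not separate its transcripts with and without exon 6, so they do not check the morpholino. All 10 satellite cell markers exceeded a mean of 10 TPM, led by Sdc4, and Pax7 ranged from 37.0 to 59.7 TPM. Together they summed to 8854 and 10420 TPM in mouse 1 and to 9755 and 10907 TPM in mouse 2. Markers of fibro-adipogenic progenitors were also present, 6 of 8 over a mean of 10 TPM. They summed to 1685 and 1788 TPM in mouse 1 and to 1579 and 1660 TPM in mouse 2, led by Gsn and Col3a1. In bulk libraries of this kind, fewer cells of a type and less RNA per cell cannot be told apart.

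The levels of the 47 genes ran over a wide range. Levels are compared in TPM, since it accounts for the length of a transcript, with the control library before the Numb exon 6 library of each mouse. Only Tpm3, Des and Actn3 exceeded a mean of 100 TPM, 8 genes lay between 10 and 100, 19 between 1 and 10, and 17 under 1. Of the 46 neighbouring pairs in the order of mean TPM, 39 had overlapping values over the 4 libraries. The 7 steps without overlap were Tpm3 over Des, Des over Actn3, Actn3 over Jsrp1, Jsrp1 over Tpm1, Tnnt1 over Atp2a1, Tpm2 over Myl4 and Acta1 over Myom1. From Myom1 down to Myh8, the lowest, every neighbouring pair overlapped.

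**Figure D1:**
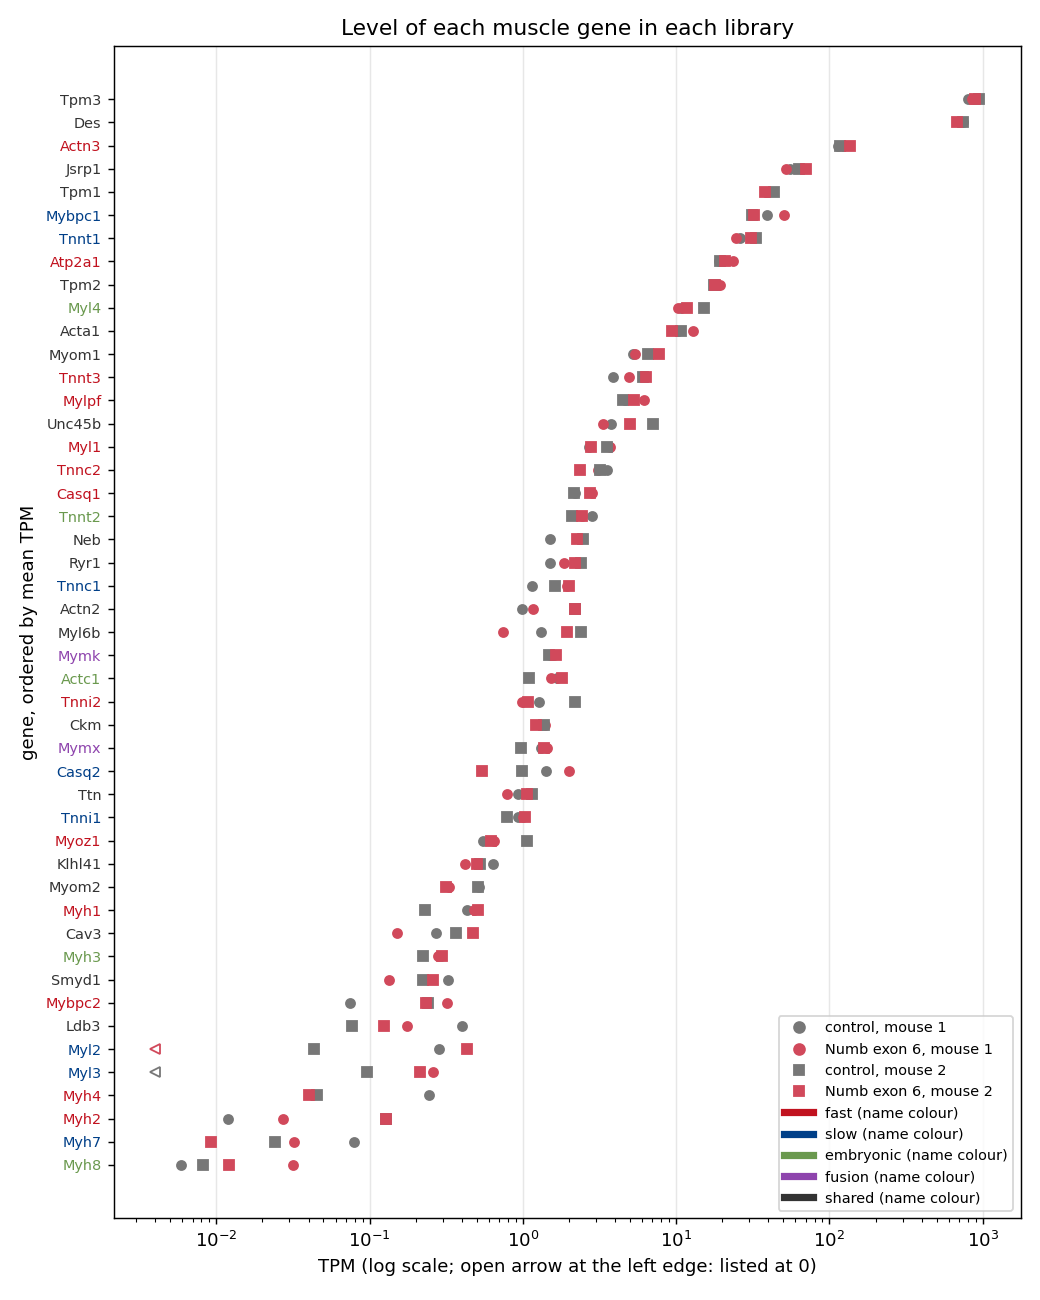
TPM (log axis) of each of the 47 genes in the 4 libraries, ordered from the highest mean to the lowest; colour of the point marks the morpholino, its shape the mouse, and the colour of the name the class. Tpm3, Des and Actn3 lie above 100 TPM in every library, 17 genes have a mean under 1 TPM, and open arrows mark the libraries in which Myl2 and Myl3 are listed at 0.

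Among the thin filament genes, tropomyosin 3 led. Tpm3 (GRCm38 chromosome 3, 90072649 to 90100902) stood at 807 and 848 TPM in mouse 1 and at 950 and 886 TPM in mouse 2, a mean of 873 ± 60.6 TPM (SD, n = 4 libraries). Its mean held rank 139 among all genes. Tpm3 encodes the tropomyosin of slow fibres and, from other promoters and exons, cytoskeletal tropomyosins of many cell types, and a value per gene does not separate them. Of the 50-base windows of its longest coding transcript, 62.4% also occur in other genes, chiefly the copy Tpm3-rs7 (mean 58.4 TPM), so some of its reads may be assigned to either gene. Tpm1, the tropomyosin of fast fibres, heart and cytoskeleton, stood at 38.5 and 38.6 TPM in mouse 1 and at 43.6 and 38.1 TPM in mouse 2. Tpm2, the beta tropomyosin, ranged from 17.7 to 19.3 TPM, so the 3 tropomyosins kept 1 order in all 4 libraries.

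Actin of the sarcomere was low by comparison. Acta1, the adult skeletal alpha actin, stood at 10.3 and 12.8 TPM in mouse 1 and at 10.7 and 9.36 TPM in mouse 2. Actc1, the cardiac alpha actin that embryonic muscle uses, ranged from 1.10 to 1.80 TPM, below Acta1 in every library. Neb, which encodes the giant thin filament ruler nebulin, ranged from 1.49 to 2.46 TPM.

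The troponins, which make the thin filament sensitive to calcium, were headed by slow troponin T. Tnnt1 stood at 26.2 and 24.7 TPM in mouse 1 and at 33.2 and 30.7 TPM in mouse 2, a mean of 28.7 ± 3.97 TPM (SD, n = 4 libraries). Its fast counterpart Tnnt3 stood at 3.89 and 4.94 TPM in mouse 1 and at 6.04 and 6.38 TPM in mouse 2, and the cardiac and embryonic Tnnt2 had a mean of 2.46 ± 0.304 TPM. The calcium-binding subunits Tnnc2 and Tnnc1 had means of 3.04 and 1.68 TPM, and the inhibitory subunits Tnni2 and Tnni1 means of 1.37 and 0.938 TPM. The exons of Tnnc2 overlap those of Ube2c on the opposite strand over 74.0% of their bases, and the libraries do not mark strand. Reads of Tnnc2 and Ube2c (mean 3.83 TPM) therefore cannot be told apart over most of the gene.

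Myosin heavy chains, the motors of the thick filament, were near the bottom of the order. The 6 heavy chain genes together stood at 1.07 and 0.889 TPM in mouse 1 and at 0.659 and 0.993 TPM in mouse 2. Myh1, the fast 2X heavy chain, was the highest at 0.434 and 0.477 TPM in mouse 1 and 0.230 and 0.508 TPM in mouse 2. Myh3, the embryonic heavy chain, ranged from 0.224 to 0.296 TPM, with a mean of 0.273 ± 0.0329 TPM (SD, n = 4 libraries). Its values and those of Myh1 overlapped. Myh4, the fastest heavy chain of mouse fibres, stood at 0.243 TPM in the control library of mouse 1 and at 0.0405 to 0.0454 TPM in the other three. Myh2, the fast 2A chain, stood at 0.0119 and 0.0271 TPM in mouse 1 and at 0.127 and 0.128 TPM in mouse 2. Myh7, the slow heavy chain, ranged from 0.00929 to 0.0791 TPM and Myh8, the perinatal chain, from 0.00586 to 0.0318 TPM. Myh3, Myh2, Myh1, Myh4 and Myh8 lie side by side on GRCm38 chromosome 11, between 67078300 and 67308634, and share coding sequence. Of the 50-base windows of their transcripts, 32.1% (Myh1), 28.9% (Myh2), 21.4% (Myh8) and 18.9% (Myh4) also occur in other genes, so small amounts given to 1 of them may belong to another.

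Some light chains and 1 myosin-binding protein stood above every heavy chain, and others did not. Mybpc1, the slow myosin-binding protein C, was the most abundant thick filament gene at 39.0 and 50.5 TPM in mouse 1 and 31.4 and 32.1 TPM in mouse 2. Its fast counterpart Mybpc2 ranged from 0.0744 to 0.322 TPM. Myl4, the essential light chain of embryonic muscle and atrium, stood at 10.7 and 10.2 TPM in mouse 1 and at 15.3 and 11.8 TPM in mouse 2. Mylpf, the fast regulatory light chain, ranged from 4.49 to 6.14 TPM and Myl1, the fast essential light chain, from 2.71 to 3.70 TPM. Myl6b, an essential light chain also used outside sarcomeres, ranged from 0.746 to 2.39 TPM. The slow light chains Myl2 and Myl3 had means of 0.190 and 0.142 TPM, and in mouse 1 Myl2 is listed at 0 with the Numb exon 6 morpholino and Myl3 with the control.

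At the Z-disc and M-band, 2 genes stood far above the rest. Des (GRCm38 chromosome 1, 75360329 to 75368579), which encodes the intermediate filament desmin and is known to be expressed in satellite cells and myoblasts as well as fibres, stood at 747 and 709 TPM in mouse 1 and at 746 and 681 TPM in mouse 2. Its mean of 721 ± 31.7 TPM (SD, n = 4 libraries) held rank 169 among all genes. Actn3, the alpha-actinin of fast fibres, stood at 114 and 123 TPM in mouse 1 and at 118 and 136 TPM in mouse 2. Actn2, the sarcomeric alpha-actinin of all fibres, stood at 0.981 and 1.16 TPM in mouse 1 and at 2.19 and 2.17 TPM in mouse 2, under Actn3 in every library. The M-band gene Myom1 ranged from 5.23 to 7.76 TPM and its relative Myom2 from 0.315 to 0.520 TPM. Titin (Ttn), Ldb3 and Myoz1, a spring, a scaffold and a calcineurin-binding protein of the sarcomere, had means of 0.985, 0.194 and 0.717 TPM.

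For calcium handling, Jsrp1, a junctional protein of the sarcoplasmic reticulum, was the highest at 55.0 and 52.2 TPM in mouse 1 and 63.2 and 70.3 TPM in mouse 2. Atp2a1, the calcium pump of fast fibres, stood at 19.0 and 23.4 TPM in mouse 1 and at 19.3 and 21.0 TPM in mouse 2. Exons of Rabep2 (mean 10.1 TPM) overlap 21.9% of the exon bases of Atp2a1 on the opposite strand, and those reads cannot be told apart. The calcium buffers Casq1 and Casq2 had means of 2.48 and 1.23 TPM. Ryr1, the release channel, ranged from 1.49 to 2.38 TPM, and Cav3, the caveolin of muscle membranes, from 0.151 to 0.472 TPM. The channel was thus measured at a lower level than the junctional protein and the pump in all 4 libraries.

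Assembly, energy and fusion genes were low. The myosin chaperone Unc45b stood at 3.76 and 3.35 TPM in mouse 1 and at 7.10 and 5.03 TPM in mouse 2, while Klhl41, which stabilises nebulin, and Smyd1, a methyltransferase of myosin assembly, had means of 0.521 and 0.236 TPM. Creatine kinase (Ckm), which buffers ATP, ranged from 1.22 to 1.40 TPM. Mymk and Mymx, the membrane proteins that drive fusion of myoblasts, ranged from 1.49 to 1.64 TPM and from 0.968 to 1.43 TPM. Mymk and Ckm were among the steadiest of the low genes, with a highest over lowest ratio of 1.10 and 1.15 over the libraries.

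The versions of these proteins did not follow 1 fibre type. Summed over 13 fast genes, the level was 152 and 169 TPM in mouse 1 and 160 and 179 TPM in mouse 2. The 8 slow genes summed to 69.0 and 80.5 TPM in mouse 1 and to 68.2 and 67.1 TPM in mouse 2, and the 5 embryonic genes to 14.5 to 18.7 TPM. Of the 3 sums, fast genes made up 64.1% to 68.2% in the 4 libraries (mean 65.3%), slow genes 25.6% to 30.5% (mean 28.2%) and embryonic genes 5.48% to 7.58% (mean 6.47%), with no overlap between the classes. These shares hold only for the classes as chosen. Tpm3 and Tpm1 (means 873 and 39.7 TPM), which include the slow and the fast fibre tropomyosin, were classed as shared. Atp2a2 (mean 120 TPM), the slow and general calcium pump, was in no class, while the fast pump Atp2a1 counted as fast. The means of Tpm3 and Atp2a2 each exceeded the mean slow sum of 71.2 TPM. The order of the fast and slow sums thus depends on class membership. Each sum leaned on 1 gene. Without Actn3, Mybpc1 and Myl4, the mean sums were 42.7 TPM for fast, 32.9 TPM for slow and 4.26 TPM for embryonic genes, and the shares were 53.4%, 41.2% and 5.37%.

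Fast and slow genes were compared for 7 proteins. Fast was higher in all 4 libraries for 4, slow for 2, and the order was mixed for 1. The calcium pump was not among these proteins, since its slow and general gene Atp2a2 was read in another list. Atp2a2 stood at 124 and 120 TPM in mouse 1 and at 114 and 121 TPM in mouse 2. It thus exceeded the fast pump Atp2a1 (19.0 to 23.4 TPM) in every library. Slow troponin T exceeded fast in every library, with a ratio of mean TPM of 5.40, and slow myosin-binding protein C exceeded fast with a ratio of 176. Fast light chains exceeded slow ones with ratios of 22.4 (Myl1 over Myl3) and 27.0 (Mylpf over Myl2). Smaller ratios separated fast from slow troponin C (1.82) and Casq1 from Casq2 (2.01). Troponin I was mixed, with Tnni2 over Tnni1 in 3 libraries and 0.984 against 1.01 TPM in the Numb exon 6 library of mouse 1. In all but the control library of mouse 2, nearly all of the Tnni2 level was assigned to a transcript not annotated as coding. So troponin T and myosin-binding protein C were higher as slow genes in the same libraries in which both light chains were higher as fast genes. The embryonic essential light chain Myl4 in turn exceeded the fast Myl1 in every library, while embryonic troponin T (Tnnt2) stayed below the slow and fast genes in each.

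**Figure D2:**
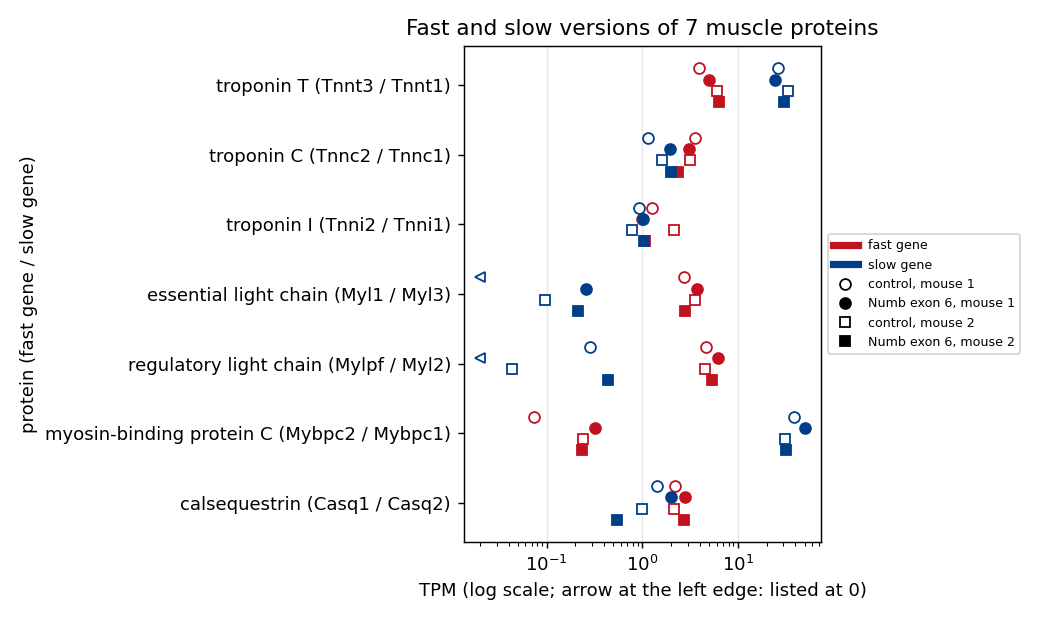
TPM (log axis) of the fast gene (red) and the slow gene (blue) of 7 proteins; open symbols are control and filled symbols Numb exon 6 libraries, circles mouse 1 and squares mouse 2, and arrows mark values listed at 0. Blue lies to the right for troponin T and myosin-binding protein C in all 4 libraries, red for troponin C, both light chains and calsequestrin, and troponin I is mixed.

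The comparison of morpholinos asks whether muscle genes followed the block of Numb exon 6. Of the 47 genes, 46 passed the filter on low counts and Myh8 did not. None was called at an adjusted p of 0.05 by edgeR, where 0 of 27551 genes (0%) were called, and 0 of the 46 had an unadjusted p under 0.05, against 4.16% of all genes. With the mouse as a block these were again 0 called and 0 at an unadjusted p under 0.05, against 6.09% of all genes. DESeq2 also called 0 of the 46, against 0.236% of all genes, and 0.577% with the block. The median log2 fold change of the 46 genes was -0.02, beside 0.005 for all genes tested, with a range from -1.87 to 1.78.

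Within the mouse pairs, 9 of the 46 genes were higher with the Numb exon 6 morpholino in both mice, 15 were lower in both and 22 went opposite ways. Over all genes tested, 28.1% were higher and 27.4% lower in both mice. Values of the groups did not overlap for 6 genes that were higher (17.4% of all genes) and for 10 that were lower (17.1% of all genes). By class, both mice had higher values for 4 of 13 fast genes and lower ones for 3, and the class median of the log2 fold change was 0.06. Of the 8 slow genes 3 were higher and 2 lower, with a median of 0.25, of the 19 shared genes 1 was higher and 9 lower, with a median of -0.15, and of the 4 embryonic genes tested 0 were higher and 1 lower. Between the mice, the log2 ratios of the 46 genes correlated at r = -0.27 (Pearson) and rho = 0.03 (Spearman), as a description over genes that share their libraries.

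Without the block, the gene with the smallest p was Myom2. Its normalised counts (CPM, scaled to library size but not to length) were 1.17 and 0.703 in mouse 1 and 1.09 and 0.628 in mouse 2. Both Numb exon 6 libraries lay below both controls, and the log2 fold change was -0.76 ± 0.34 (SE, n = 2 libraries per group, edgeR adjusted p = 0.999). Myh4 had a log2 fold change of -1.87 ± 0.91 (SE), from 0.788 CPM in the control library of mouse 1 against 0.124 to 0.144 CPM in the other three. Without that control library its log2 fold change was -0.17. Des stood at 1200 and 1074 CPM in mouse 1 and at 1149 and 1027 CPM in mouse 2, lower by nearly equal log2 ratios of -0.16 in both mice. Its log2 fold change was -0.16 ± 0.10 (SE, edgeR adjusted p = 0.999), and its SE with the mouse as a block was 0.06. With that block Des, not Myom2, had the smallest p among the muscle genes (edgeR, unadjusted p = 0.0589 and 0.0897, adjusted p = 0.796 for both). The TPM values of Des also did not overlap between groups.

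Of the genes higher in both mice, Atp2a1 had the smallest p, at 31.0 and 38.8 CPM in mouse 1 and 32.6 and 34.7 CPM in mouse 2. Its fitted log2 fold change was 0.21 ± 0.14 (SE, n = 2 libraries per group, edgeR adjusted p = 0.999). Tnnc1 had one of 0.47 ± 0.40 and Myh1 of 0.42 ± 0.37 (SE), and the log2 ratio of Myh1 was 0.03 in mouse 1 and 0.86 in mouse 2. Among the most abundant genes, Tpm3 had a log2 fold change of -0.07 ± 0.11, Actn3 of 0.11 ± 0.11, Jsrp1 of -0.01 ± 0.19 and Tpm1 of -0.14 ± 0.14 (SE). The slow genes Tnnt1 and Mybpc1 had -0.16 ± 0.19 and 0.17 ± 0.23, the embryonic genes Myl4 and Myh3 -0.30 ± 0.21 and 0.10 ± 0.36, and the fusion genes Mymk and Mymx -0.03 ± 0.31 and 0.27 ± 0.48 (SE). Each of these differences was smaller than 2 SE. In CPM, the groups did not overlap for Atp2a1, Tnnc1, Myh1 and Actn3, which were higher, and for Tpm1 and Myl4, which were lower. In TPM the higher genes again did not overlap, while Tpm1 and Myl4 did.

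**Figure D3:**
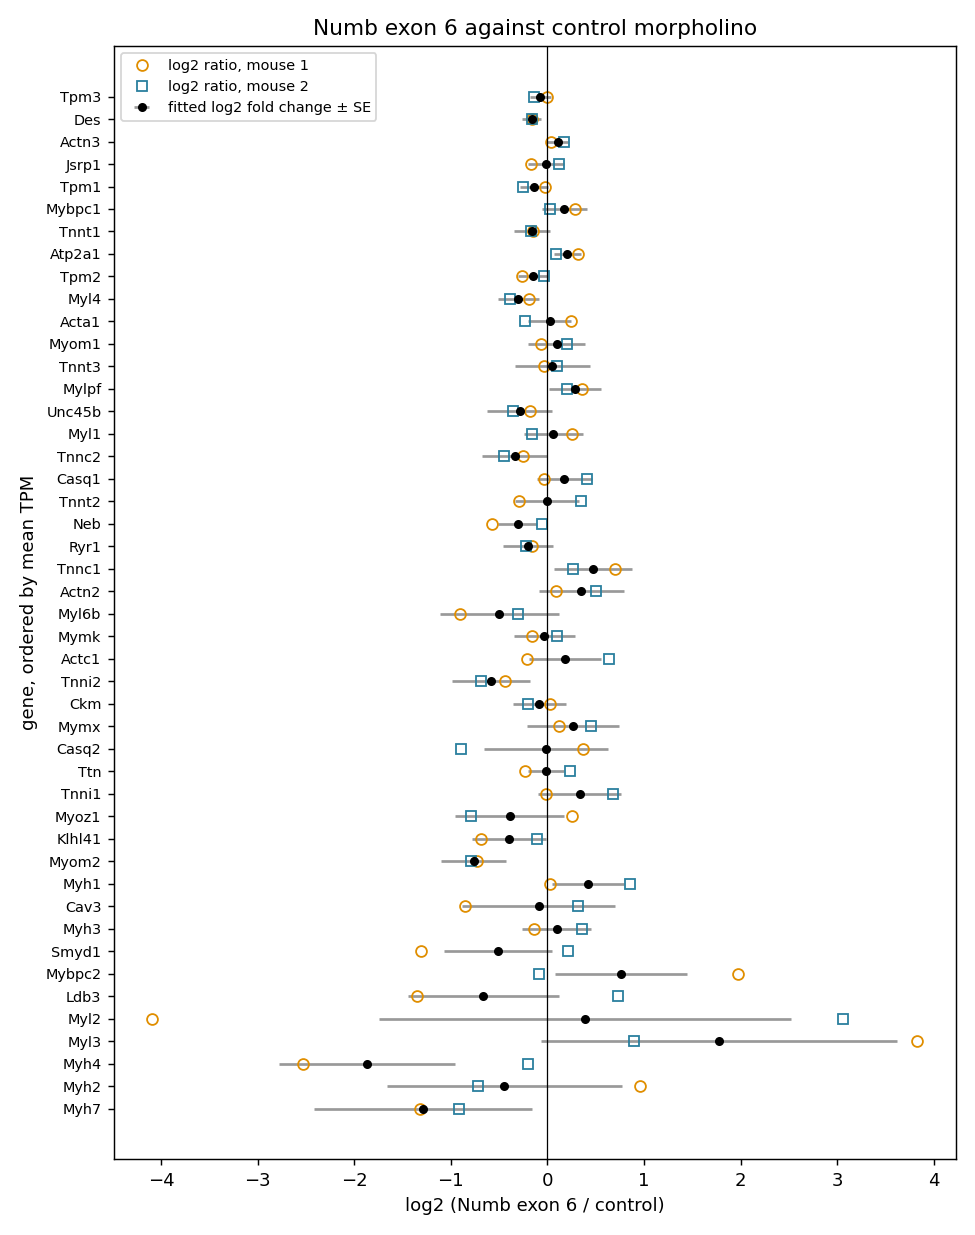
Log2 ratio of Numb exon 6 to control morpholino for the 46 genes tested, ordered by mean TPM; open circles are mouse 1, open squares mouse 2, and black points with bars the fitted log2 fold change ± SE. Fitted values of the 11 genes at the top lie within 0.30 of 0, those at the bottom reach from -1.87 to 1.78 with long bars, and for 22 genes the mice lie on opposite sides of 0.

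Precision followed the level for most genes. The median SE of the log2 fold change was 0.155 for the 11 genes at a mean of 10 TPM or more, 0.335 for the 19 from 1 to 10 TPM and 0.623 for the 16 under 1 TPM. The largest log2 fold changes in these groups, in either direction, were 0.30, 0.58 and 1.87. Ttn, with a long transcript and 7566 to 12984 estimated counts per library at a mean of 0.985 TPM, had an SE of 0.185. That was below the lowest SE of the genes from 1 to 10 TPM (0.199). The genes past a log2 fold change of 1 in size were Myh4, Myh7 and Myl3, which all have a mean under 1 TPM. Myh7 had one of -1.29 ± 1.13 (SE), and without the control library of mouse 1 it was 0.10. Myl3 had 1.78 ± 1.84 (SE) and is listed at 0 in the control library of mouse 1. At the median SE of the genes under 1 TPM, a 2-fold change, which is 1 on the log2 scale, is smaller than 2 SE.

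Markers of other cells were examined beside these values. The 13 leukocyte markers summed to 33.2 and 43.8 TPM in mouse 1 and to 38.0 and 134 TPM in mouse 2, with 9 higher and 2 lower in both mice and a median of 1.39 for the log2 fold change. None of the 13 was called by edgeR (0 of 13, with 4 below an unadjusted p of 0.05), and DESeq2 called 1. The pan-leukocyte marker Ptprc stood at 0.572 and 1.21 TPM in mouse 1 and at 0.0520 and 0.719 TPM in mouse 2. The neutrophil genes S100a8 and S100a9, at 46.5 and 36.0 TPM in the Numb exon 6 library of mouse 2, made up most of its sum, and were at most 4.23 and 2.63 TPM in the other libraries. Cd68, the most abundant leukocyte marker by mean TPM, stood at 17.6 and 17.9 TPM in mouse 1 and at 20.7 and 21.2 TPM in mouse 2. Its log2 fold change was 0.02 ± 0.18 (SE). The 2 markers lower in both mice were Csf1r and C1qa. Smooth muscle and pericyte markers, which share contractile functions with the genes above, summed to 245 and 276 TPM in mouse 1 and to 242 and 229 TPM in mouse 2, opposite orders in the 2 mice. The median log2 fold changes of the other lists were 0.12 for smooth muscle and pericytes, 0.27 for endothelium, 0.21 for fibro-adipogenic progenitors, 0.34 for erythroid cells, 0.21 for satellite cells, 0.49 for glia and 0.02 for tenocytes, with 0 of their genes called by edgeR and 2 at an unadjusted p under 0.05. DESeq2 called 1 of them, the myelin gene Pmp22 of the glial list (log2 fold change 0.97 ± 0.23, SE). Erythroid markers summed to 538 and 928 TPM in mouse 1 and to 1532 and 1733 TPM in mouse 2. The part of these cells in the values of the muscle genes was not tested.

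Other genes of the same pathways were read from the same fit. Of 45 other sarcomere genes 42 were tested, and both mice had higher values for 16 and lower ones for 11, with a median of -0.04 for the log2 fold change and 3 at an unadjusted edgeR p under 0.05. The most abundant, the small heat shock protein Cryab and the filamin Flnc, differed by -0.56 ± 0.23 and -0.23 ± 0.10 on the log2 scale (SE, n = 2 libraries per group, edgeR adjusted p = 0.999). Cryab stood at 1059 and 907 TPM in mouse 1 and at 1732 and 1030 TPM in mouse 2, and Flnc at 768 and 660 TPM in mouse 1 and 790 and 724 TPM in mouse 2. Both were above Des or near it in level, and both were lower with the Numb exon 6 morpholino within each mouse. Of 34 other genes of excitation and contraction, led by the receptor kinase Musk and the slow and general calcium pump Atp2a2, 11 were higher and 9 lower in both mice (median -0.05). Of 12 myogenic regulators 4 were higher and 3 lower (median 0.10), and the most abundant, Myod1 and Myf5, differed by 0.10 ± 0.13 and 0.72 ± 0.24 on the log2 scale (SE). Of 12 genes of assembly and fusion, led by the chaperone Hsp90aa1 and the tetraspanin Cd9, 5 were higher and 3 lower (median 0.05). By edgeR 0 genes of these 4 lists were called, with 1 excitation and contraction gene, 2 regulators and 0 assembly and fusion genes at an unadjusted p under 0.05, and DESeq2 without the block also called 0.

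The 2 mice were compared as 1 animal against 1, so the SE and p measure the spread between the libraries of an animal. Here 0 of the 46 genes were called by edgeR, against 0.0254% of all genes (0.0109% higher and 0.0145% lower in mouse 2), and 0 by DESeq2, against 1.80%. At an unadjusted edgeR p under 0.05 there were 9 of the 46 (19.6%), against 8.31% of all genes, with adjusted p values from 0.542 to 0.594. With the morpholino as a second term there were again 9, against 9.42% of all genes, and 0 called, against 0.00363%. Higher in mouse 2 were Myom1, Myh2, Tnnt3, Unc45b, Actn2, Ryr1 and Myl6b, and lower were Mybpc1 and Casq2. All 9 had no overlap between the mice, but they were picked by p over the same values, so this adds no support. In all, 12 of the 46 genes were higher in mouse 2 without overlap (20.9% of all genes) and 5 lower (18.8%). In both morpholino groups alike, 18 were higher and 10 lower in mouse 2, against 29.9% and 27.6% of all genes, and the median log2 fold change was -0.002, beside 0.02 for all genes.

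Myom1 had 8.34 and 7.95 CPM in mouse 1 and 11.1 and 12.8 CPM in mouse 2, a log2 fold change of 0.55 ± 0.17 (SE, n = 2 libraries per mouse, edgeR adjusted p = 0.542). A short stretch of its exons, 1.98% of the bases, overlaps Myl12a on the opposite strand, whose mean was 1259 TPM. Tnnt3 had 2.00 and 1.96 CPM in mouse 1 and 3.11 and 3.34 CPM in mouse 2, a log2 fold change of 0.70 ± 0.24 (SE). Myh2 had 0.0401 and 0.0843 CPM in mouse 1 and 0.405 and 0.244 CPM in mouse 2 (2.38 ± 0.77, SE), at levels where reads may be shared with Myh1. These values rest on 14 and 27 estimated counts in mouse 1 and 124 and 57 in mouse 2. Mybpc1 had 59.5 and 72.5 CPM in mouse 1 and 48.0 and 48.9 CPM in mouse 2, a log2 fold change of -0.45 ± 0.13 (SE). Casq2 had -1.14 ± 0.40 and Myh7 -1.99 ± 0.97 (SE), while the slow genes Tnnt1, Tnnc1 and Myl3 had 0.26 ± 0.15, 0.22 ± 0.44 and 0.99 ± 1.89 (SE). Of the 8 slow genes, 3 were thus higher and 3 lower in mouse 2 with both morpholinos, with a median of 0.11. Erythroid markers, whose sums are given above, were higher in mouse 2, with a log2 fold change of 1.17 ± 0.23 (SE) for Hba-a1, and of the 9 smooth muscle and pericyte markers 2 were higher and 5 lower in mouse 2 with both morpholinos. The most abundant of these, Acta2 and Smtn, had log2 fold changes of -0.41 ± 0.11 and 0.40 ± 0.15 (SE). The part of these markers in the differences of the muscle genes was not tested.

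**Figure D4:**
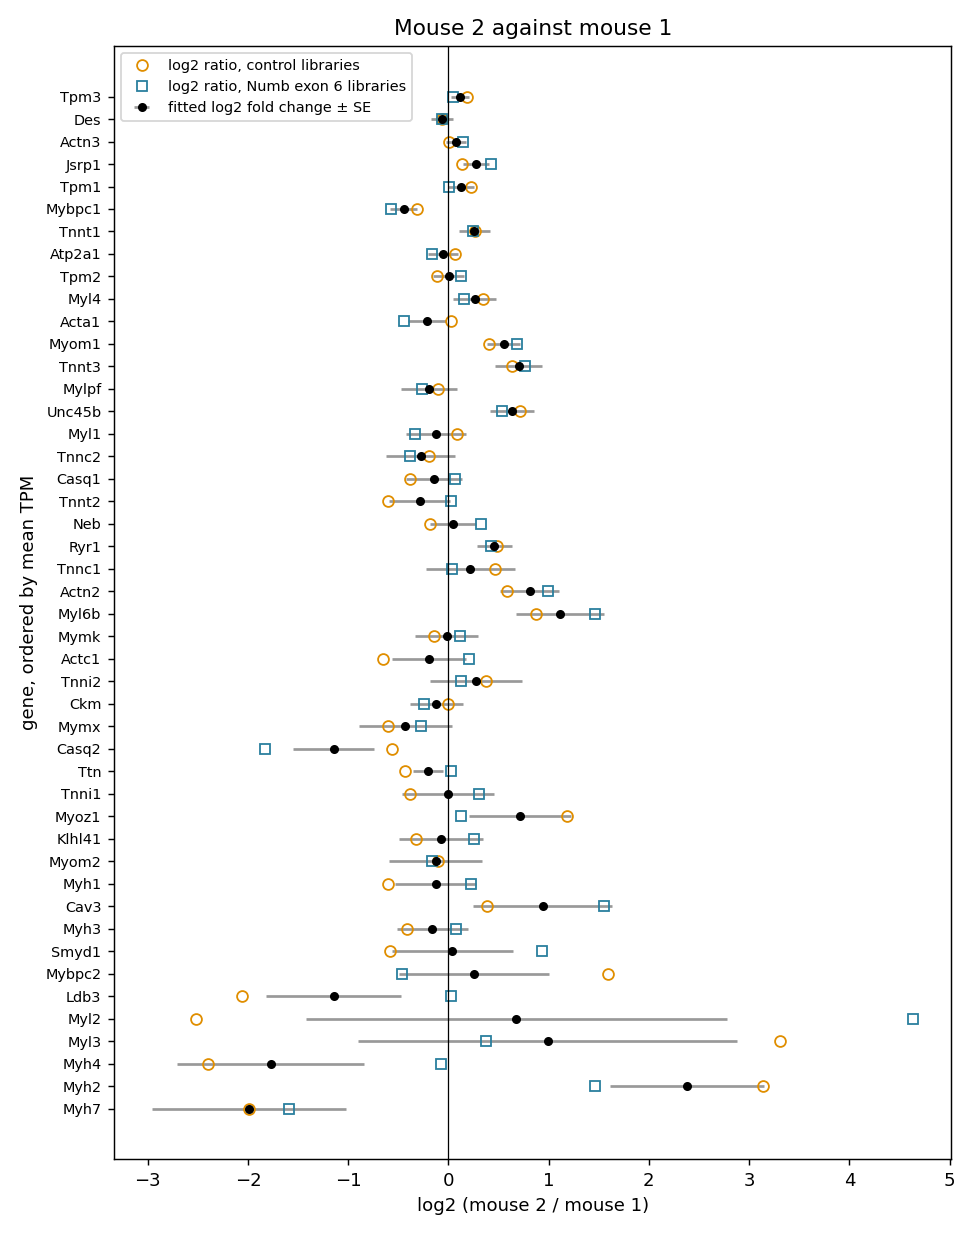
Log2 ratio of mouse 2 to mouse 1 for the 46 genes tested, ordered by mean TPM; open circles compare the control libraries, open squares the Numb exon 6 libraries, and black points with bars give the fitted log2 fold change ± SE. Myom1, Tnnt3, Unc45b, Ryr1, Actn2, Myl6b and Myh2 lie right of 0 by both symbols, and Mybpc1, Casq2 and Myh7 lie left of 0.

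The counts and TPM of a gene imply a mean transcript length, which depends on the mix of transcripts assigned to it in a library. It could be computed in all 4 libraries for 35 genes with at least 100 counts in each, and its median was 95.5% of the longest coding transcript in GENCODE vM21. For the most abundant genes it was steady, at 99.8% for Actn3, 98.0% for Des and 95.5% for Tpm3. It lay under 70% for 6 genes, among them Tpm1 (65.6%), Unc45b (56.9%) and Myom1 (54.5%). It was well above 100% for Myl4 (121%), Tnni2 (111%) and Myl6b (111%), each with a longer annotated transcript that is not coding. At least part of the level of these genes was thus assigned to such a transcript. For Tnni2 the implied length was 900 and 895 bases in mouse 1 and 702 and 902 bases in mouse 2. Its longest transcript has 895 bases and its longest coding transcript 768. In all but the control library of mouse 2, nearly all of the Tnni2 level was thus assigned to the longer transcript. For 9 genes the longest exceeded the shortest library by more than 1.2 times. Neb varied most, with 15006 and 6741 bases in mouse 1 and 8286 and 8900 bases in mouse 2, and Ttn had 74216 and 78906 bases in mouse 1 and 45941 and 59535 bases in mouse 2.

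Counts and TPM gave opposite signs for some genes. Neb was lower with the Numb exon 6 morpholino by counts, with a log2 fold change of -0.31 ± 0.20 (SE), and higher in TPM, by 0.25 on log2(TPM + 0.1). Its TPM in mouse 1 was 1.49 with the control and 2.36 with the Numb exon 6 morpholino, while its CPM was 12.1 and 8.13. In all, 8 of the 46 genes had opposite signs on the 2 scales, namely Myh2, Tnnt2, Myl2, Tpm2, Neb, Ryr1, Mymk and Jsrp1. For each of them the log2 fold change by counts was under 2 SE. Of the 50-base windows of their longest coding transcripts, 22 of the 47 genes shared none with another gene and 13 shared more than 5%.

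**Figure D5:**
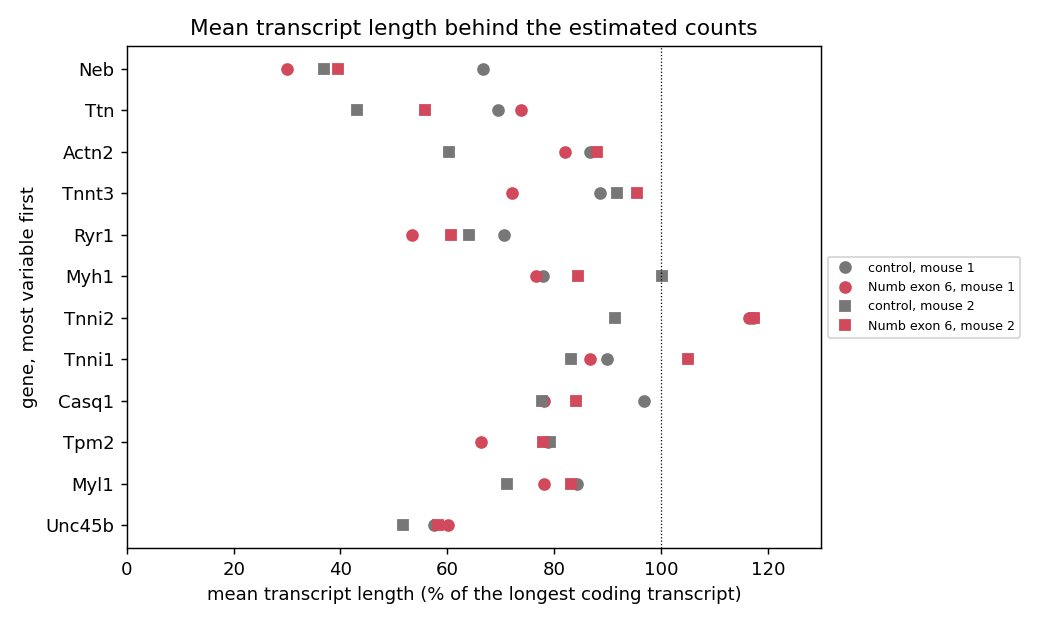
Mean transcript length implied by counts and TPM, as a percentage of the longest coding transcript (dotted line at 100), for the 12 genes whose length varied most, by library; colour marks the morpholino and shape the mouse. Neb and Ttn spread the widest over the libraries.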

How the data were processed

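Full-length cDNA was amplified from 5 ng of RNA by SMART-Seq2, per the labels' protocols, which does not mark strand. The submitters' processing notes name StringTie 1.3.6, HISAT2 2.1.0 and GRCm38, while no annotation release is given in the sources used here. The authors deposited whole-number estimated counts and TPM values. Among single-transcript genes with at least 500 counts, counts matched TPM times transcript length within 1% for at least 99.96% of genes in each library, so the counts come from coverage. More genes had 4 counts (1545 to 1789 per library) than 3 (969 to 1122), so 1 fragment may be worth about 4. Tests on these counts may therefore understate the sampling noise of genes with few counts. Coordinates are from GENCODE vM21, which holds 55094 of the identifiers.

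Counts were tested with edgeR 4.0.16 (R 4.3.3; quasi-likelihood, TMM, default expression filter, no block) and Benjamini-Hochberg adjustment over all 27551 genes tested, at 0.05. CPM are scaled by TMM, and log2 ratios within pairs use a prior count of 2. Same-numbered libraries come from 1 mouse, so the mouse pairs them. The correlation of their deviations from the group means was 0.401 over the 8468 genes whose mean log2 CPM was at least 3 and 0.0561 over all tested. The tests were checked on simulated counts for the morpholinos, without the block. The changed genes were drawn from those with a mean above 1 CPM, and no difference between mice was simulated. Of 100 genes changed 2-fold and 100 changed 4-fold, edgeR called 30 and 87, with 1 false call. DESeq2 called 45 and 92, with 40 false calls. These rates do not cover members below that level, such as Myh2 and Myh7. Alternatives were the block, other size factors and filters, DESeq2 1.42.0, limma 3.58.1 on log2 TPM, counts divided by 4, and each library left out. The members, their classes and the lists were chosen with earlier results of these data known. Genes named are the 3 most abundant per role, the fusion genes, Myh3, Myh7 and Myh8, the 3 per direction and comparison with the smallest p and the same sign in both pairs, and the 2 most abundant per list where lists are described. Others are named for their role in a fast, slow or embryonic set or as the full set behind a count. Neb, Ttn and the genes with overlapping exons or long mean transcripts were chosen after their values were seen. Among the cell type markers, Pax7, Ptprc and S100a9 were named outside these rules.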

Additional observations from a re-analysis of the deposited data

How the results depend on the processing

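By edgeR, DESeq2 and limma, 0 members were called in either comparison under every alternative run. For the morpholinos the number of all genes called was 0 with the mouse as replicate block, as without it, 10 without a filter on low counts, 1 where 2 libraries had to reach a CPM of 5, 65 with DESeq2 and 159 with DESeq2 and the block, and 0 to 1 with 1 library left out. The median log2 fold change of members was -0.0487 with the block and ran from -0.1428 (without the Numb exon 6 library of mouse 2) to 0.0115 (without the control library of mouse 1). For the mice, 7 genes were called, against 1 with the morpholino as a term, 119 without a filter, 43 with a CPM of at least 5, 495 with DESeq2, 4 with limma on log2(TPM + 1), and 1 (without either library of mouse 1) to 28 (without the Numb exon 6 library of mouse 2; 19 without the control library of mouse 2). Their median of members was 0.1205 with a CPM of at least 5, and -0.0511 to 0.0291 with 1 library left out. Without the most abundant member of each class, the sums and shares were 42.7 TPM and 53.4% for fast, 32.9 TPM and 41.2% for slow, and 4.26 TPM and 5.37% for embryonic genes. On log2(TPM + 1) and log2(TPM + 0.1) the morpholino log2 fold changes turned to 0.0390 and 0.0394 for Jsrp1 and to 0.0175 and 0.0269 for Mymk. With 1 library left out, the direction turned for Unc45b (-0.6001 to 0.1052), Jsrp1 (-0.2391 to 0.1800), Casq1 (-0.0140 to 0.3793), Ckm (-0.2137 to 0.0318), Mymk (-0.1120 to 0.0455), Mymx (-0.0173 to 0.6032), Mybpc1 (-0.1419 to 0.4292), Tpm3 (-0.1600 to 0.0120), Myom1 (-0.2890 to 0.3952), Myh3 (-0.1078 to 0.3192) and Myh7 (-2.4456 to 0.1038); none of these was called. A group left with 1 library is assumed to vary like the other. No direction turned among the 6 genes named for the mice. Beyond the counts that follow from fewer genes or libraries, the cause was not tested. Low levels limit precision: at the median SE of 0.623 of genes under 1 TPM, a 2-fold change is under 2 SE.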
